A study of Mus musculus with 32 samples.

Results

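Here, the translation of mRNAs was compared between Grin2d-silenced and control 4T1 spheroids that both received aspartate. For every gene, polysomal RNA was divided by sub-polysomal RNA within each spheroid pellet (log2 scale), and the 4 pellets of ASP shGRIN2D were set against the 4 pellets of ASP shSCR, with and without ASP shSCR replicate 1. These 8 pellets gave 16 of the 32 mRNA libraries of the experiment, and the other 16 came from ASP shDHPS and from control spheroids without aspartate. All 17757 genes in the deposited count table were compared.

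4T1 is a mouse mammary carcinoma cell line. Both groups spent 5 days as spheroids in lung-like medium that held 700 μM aspartate. ASP shGRIN2D carried a lentiviral shRNA against Grin2d and ASP shSCR a non-targeting shRNA, both as puromycin-selected polyclonal cells. The 4 pellets of a group were independent spheroid collections, which may all come from 1 transduced line. Cycloheximide, which halts ribosomes on their mRNA, was present when the spheroids were collected, and the gradients were divided into a fraction with more than 3 ribosomes per mRNA (polysomal) and a lighter fraction (sub-polysomal). The library totals were 14571913 to 22075701 counts (polysomal) and 15614647 to 21730239 (sub-polysomal) in ASP shGRIN2D, and 16938122 to 20583258 and 17317370 to 25639437 in ASP shSCR.

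GRIN2D is a subunit of the NMDA receptor, a calcium-permeable ion channel best known from neurons that can bind aspartate. The study places it upstream of the transcription factor CREB and of deoxyhypusine hydroxylase (DOHH), which together with deoxyhypusine synthase (DHPS) forms the amino acid hypusine in the translation factor eIF5A. Hypusinated eIF5A helps ribosomes past sequences that are slow to translate, such as runs of proline, and acts in translation termination. The comparison asks which mRNAs lose or gain polysome association when the receptor subunit is silenced. The position of an mRNA on a gradient also depends on its length and on its number of initiation events, so a ratio is not a measure of protein output.

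Grin2d itself (ENSMUSG00000002771) was read at low depth. The polysomal libraries held 40, 27, 21 and 35 Grin2d counts in ASP shGRIN2D replicates 1 to 4 and 61, 63, 76 and 71 in ASP shSCR. The sub-polysomal libraries held 56, 30, 39 and 44 counts against 101, 60, 126 and 56. Scaled by library total and TMM factor, Grin2d lay at 1.06 to 2.39 CPM in the silenced and 2.66 to 4.03 CPM in the control polysomal libraries, and at 1.87 to 2.89 and 3.32 to 6.91 CPM in the sub-polysomal libraries, so the groups did not overlap in either fraction. The level difference was −1.14 on the log2 scale (SE 0.33) in the polysomal and −0.88 (SE 0.29) in the sub-polysomal libraries, and neither passed the threshold of 0.05 in edgeR (adjusted p = 0.263 and 0.232). The Grin2d ratio was −0.40, −0.68, −1.22 and −0.26 in the silenced pellets and −0.31, −0.48, −0.76 and 0.05 in the control pellets, a difference of −0.27 (SE 0.42), and −0.21 without ASP shSCR replicate 1, with overlapping groups (−0.41 to −0.08 when single pellets were omitted).

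The libraries had the markers of an epithelial line. All 10 epithelial markers were counted, with a summed level of 2418 to 7300 CPM per library, and the most abundant was Krt8, a keratin of simple epithelia. Of 8 leukocyte markers, 3 were counted and summed to 6.37 to 20.9 CPM, mostly the lysosomal gene Cd68, while Ptprc, the pan-leukocyte phosphatase, had means of 0.27 and 0.24 CPM. Of 5 endothelial markers, 2 were counted (1.54 to 6.38 CPM). Of 7 fibroblast markers, 3 were counted (101 to 239 CPM), mostly Thy1, and Col1a1 had means of 0.46 and 0.42 CPM. In such bulk libraries, fewer cells of a kind and less RNA per cell cannot be told apart.

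One control library stood apart before any gene was tested. Each library was placed on a scale on which 0 is the mean sub-polysomal and 1 the mean polysomal profile of the other 3 conditions, over the 11046 genes for which no library had fewer than 10 counts. The scales of the groups thus differ, and only that of ASP shGRIN2D includes ASP shSCR replicate 1. The permutation tests below do not account for this. In ASP shGRIN2D, the polysomal libraries lay at 1.16, 0.841, 0.967 and 1.15, and in ASP shSCR at 0.372, 0.777, 1.02 and 0.998. The polysomal library of ASP shSCR replicate 1 thus lay nearer to the sub-polysomal end. All 8 sub-polysomal libraries lay between −0.114 and 0.0464. The distance between the fractions of a pellet was 1.09 ± 0.126 (SD, n = 4) in ASP shGRIN2D and 0.821 ± 0.297 (SD, n = 4) in ASP shSCR, a difference of 0.272 (two-sided exact permutation test, p = 0.114, smallest possible 0.0286). Without ASP shSCR replicate 1 the control mean was 0.964 ± 0.0946 (SD, n = 3) with the scales unchanged, and the difference was 0.128 (exact permutation p = 0.2). With the scale also recomputed without the pellet left out, the difference was 0.0749 without ASP shSCR replicate 1 (exact permutation p = 0.429) and 0.366 without ASP shSCR replicate 3 (exact permutation p = 0.0286). Differences in the ratio are therefore given below with all pellets and, as the second value, without ASP shSCR replicate 1.

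**Figure D1:**
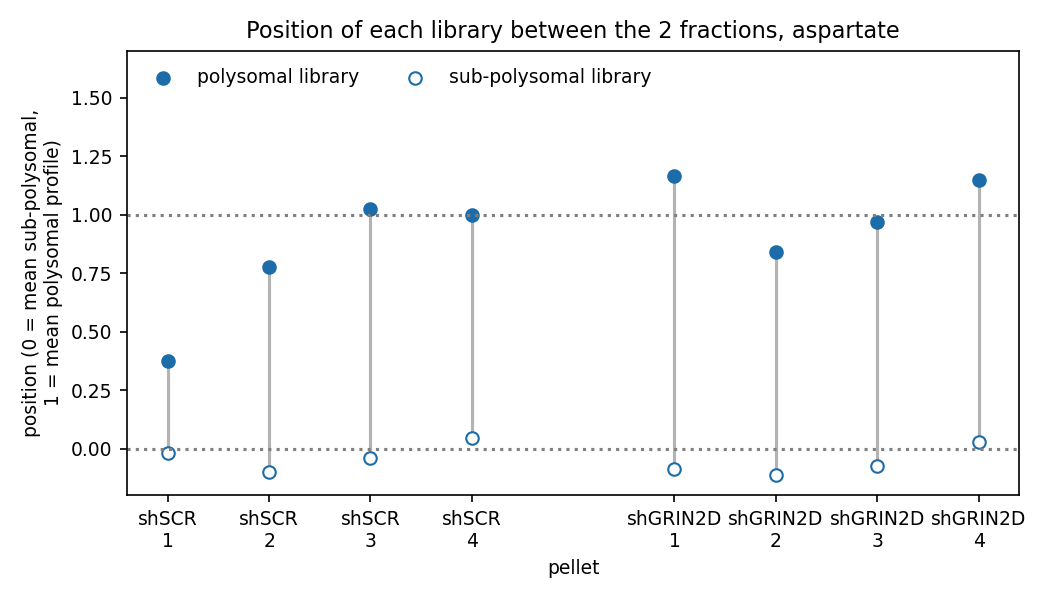
Position of each library (y axis, 0 = mean sub-polysomal and 1 = mean polysomal profile of the other conditions) for the 4 pellets of ASP shSCR and the 4 of ASP shGRIN2D (x axis), with filled points for polysomal and open points for sub-polysomal libraries. The polysomal library of ASP shSCR replicate 1 lies at 0.372, and the other 7 lie between 0.777 and 1.16.

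No gene passed the threshold for a difference in its ratio. In edgeR's quasi-likelihood test, 0 of 17757 genes (0%) had an adjusted p under 0.05, with all pellets or without ASP shSCR replicate 1, and the smallest adjusted p was 1 in both. DESeq2's Wald test and limma on the pellet ratios also called 0 genes. At an unadjusted p under 0.05, 250 genes (1.41%) lay higher in ASP shGRIN2D and 321 (1.81%) lower. The 571 genes together are 3.22% of those tested, fewer than the 887.85 that 5% of all genes would give. This comparison turned on single pellets. There were 499 genes higher and 682 lower without ASP shSCR replicate 3, and 446 and 515 without ASP shSCR replicate 2. In both cases the sum lies above 887.85. Without ASP shSCR replicate 1 there were 193 genes higher (1.09%) and 160 lower (0.901%), 1.99% together, of which 113 and 88 were among the genes found in that direction with all pellets. For the 10922 genes with a mean of at least 50 counts, the median standard error of the difference was 0.293, and the differences ran from −0.43 at the 10th to 0.39 at the 90th percentile. The genes and groups below are thus described by their values, and none of them is called changed.

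The genes with the clearest gap between the pellets were chosen by a rule. It required pellets that did not overlap, a mean of at least 50 counts and a symbol not of the kind given to predicted genes, clones or pseudogenes. It also required an unadjusted edgeR p under 0.05 in the same direction with and without ASP shSCR replicate 1. Of the genes counted, 27 met it in the higher and 12 in the lower direction. Pellets did not overlap in 99 (0.906%) and 81 (0.742%) of the 10922 genes with at least 50 counts, higher and lower, respectively, and in 1.39% and 1.6% of them without ASP shSCR replicate 1. Over all genes the shares were 1.04% and 0.924%, and 1.84% and 1.93% without the replicate. The 10 genes with the smallest p in each direction are named here.

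Among the 10 genes higher in ASP shGRIN2D, Ephx1, the microsomal epoxide hydrolase of the endoplasmic reticulum (ER), had ratios of 2.40, 2.12, 2.06 and 2.21 in the silenced pellets and 0.90, 1.02, 1.56 and 1.44 in the control pellets. The difference was 0.98 (SE 0.27) and 0.91 without ASP shSCR replicate 1. Its level differed by −0.58 in the sub-polysomal and by 0.31 in the polysomal libraries. Sil1, the nucleotide exchange factor of the ER chaperone BiP, had 1.87, 1.32, 1.25 and 1.71 against −0.08, 0.66, 1.05 and 0.57. Its difference was 1.00 (SE 0.28) and 0.82 without that replicate. In Gnao1, a G protein α subunit most abundant in neurons, the gap lay in the polysomal fraction. Its ratios were 0.59, 0.13, −0.13 and 1.25 against −0.86, −0.64, −0.73 and −0.38, a difference of 1.13 (SE 0.35) and 1.09, with a polysomal level difference of 1.20 and a sub-polysomal one of 0.09. Hibch, an enzyme of valine breakdown, had 1.96, 1.69, 2.11 and 2.09 against 0.56, 1.39, 1.12 and 1.48 (difference 0.84, SE 0.30, and 0.68).

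The other 6 genes higher in ASP shGRIN2D differed by 0.64 to 1.39. They were Siglec15 (1.39), a sialic acid-binding lectin, Zbtb11os1 (1.30), a transcript opposite Zbtb11 whose reads may include those of its antisense neighbour because the strand setting of the counting is not given in the sources used here, Vldlr (1.09), a lipoprotein receptor, Nudt22 (1.00), a Nudix hydrolase, Babam2 (0.65), a subunit of a BRCA1-associated complex, and Twf2 (0.64), which binds actin. In all 10 genes, ASP shSCR replicate 1 was the lowest control pellet. Without it, Siglec15 differed by 1.04, Zbtb11os1 by 1.10, Vldlr by 0.80, Nudt22 by 0.82, Babam2 by 0.50 and Twf2 by 0.57.

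Among the 10 genes lower in ASP shGRIN2D, Eea1, which tethers early endosomes, had ratios of 0.08, −0.04, 0.32 and −1.03 in the silenced pellets and 0.48, 0.68, 0.46 and 0.76 in the control pellets. The difference was −0.76 (SE 0.26), the same value without ASP shSCR replicate 1, and −0.48 without ASP shGRIN2D replicate 4, its lowest pellet. Cep152, a scaffold of centriole duplication, had −0.79, −0.81, −0.28 and −0.84 against −0.13, 0.00, 0.25 and 0.68 (difference −0.89, SE 0.31, and −0.97). Mdn1, a giant ATPase of large ribosomal subunit assembly, had −0.71, −0.72, −0.17 and −0.29 against 0.26, 0.29, −0.06 and 0.39 (difference −0.70, SE 0.26, and −0.65). Dync2h1, the heavy chain of the ciliary dynein, and Atad5, which unloads the replication clamp PCNA from DNA, differed by −0.85 and −0.68, respectively (−0.78 and −0.63 without ASP shSCR replicate 1). Shroom4, an actin-binding protein, differed by −0.67 and Zfp59, a zinc finger protein, by −0.91 (−0.69 and −0.99 without it).

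Slc40a1, which encodes the iron exporter ferroportin, had ratios of −2.45, −2.19, −2.19 and −2.45 against −1.87, −1.09, −2.07 and −0.75, a difference of −0.88 (SE 0.34) and −1.0 without ASP shSCR replicate 1. Here the sub-polysomal level was higher (1.07, SE 0.19, edgeR adjusted p = 0.00623), while the polysomal level differed by 0.13. Inafm2 and Faxc had ASP shSCR replicate 1 far above the other control pellets. Inafm2 ratios were −2.98, −2.79, −2.53 and −2.30 against 0.18, −2.16, −2.23 and −1.61, so that the difference of −1.21 was −0.62 without ASP shSCR replicate 1. For Faxc it was −0.91 and −0.64.

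**Figure D2:**
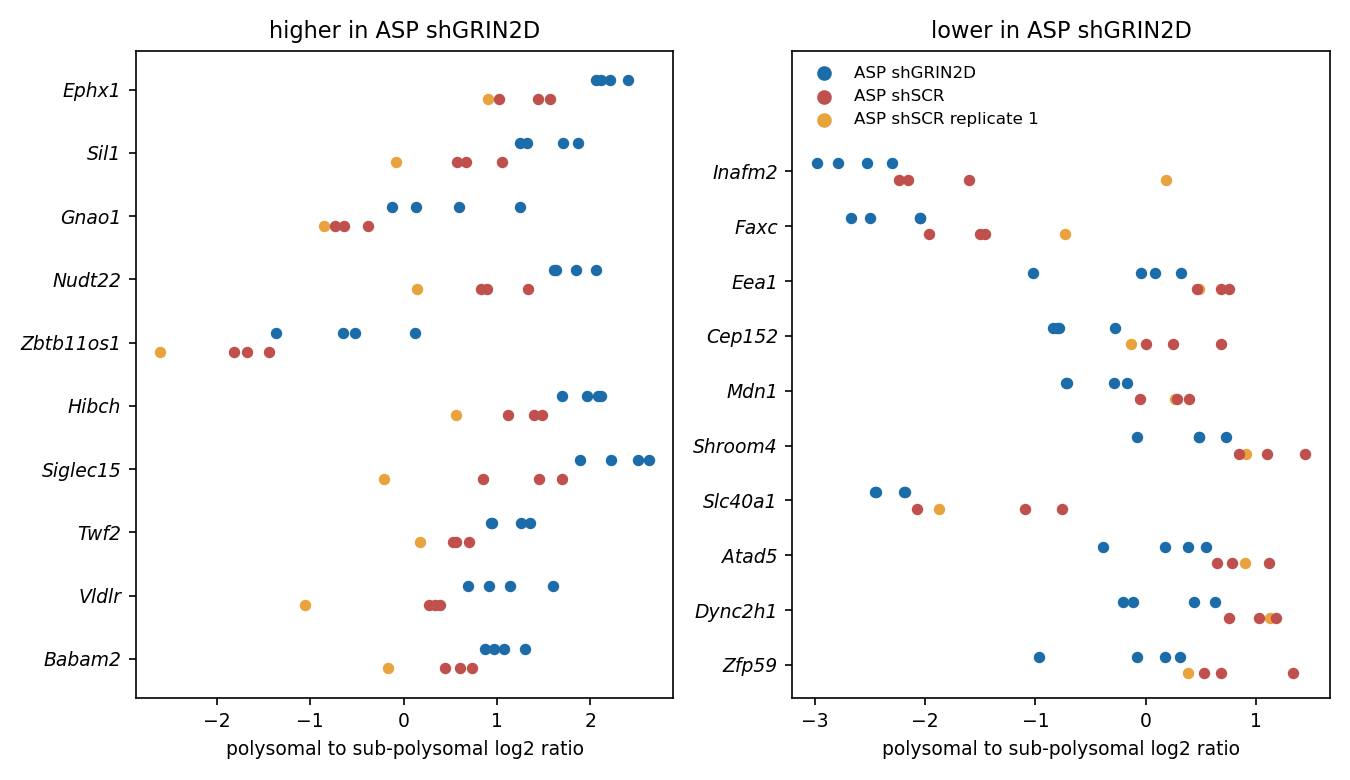
Polysomal to sub-polysomal log2 ratio (x axis) of each pellet for the 10 genes named as higher (left) and the 10 named as lower (right) in ASP shGRIN2D, with ASP shSCR replicate 1 in orange. The rule required that the blue and the other points of a gene do not overlap; for Inafm2 the orange point lies at 0.18 and the other control points at −1.61 or below.

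The mRNAs of the pathway from receptor to hypusine did not separate the groups. Dohh had ratios of −0.07, 0.22, 0.20 and 0.55 in the silenced pellets and −0.74, 0.36, −0.07 and 0.18 in the control pellets, a difference of 0.29 (SE 0.25) that was 0.11 without ASP shSCR replicate 1. Its levels differed by 0.05 (polysomal) and −0.15 (sub-polysomal). Dhps had −0.55, 0.03, −0.24 and −0.22 against −1.18, 0.38, −0.32 and −0.40, with a difference of 0.13 (SE 0.28) and −0.10 without that pellet. Eif5a, among the abundant mRNAs with a mean of 35163 counts per library, differed by −0.15 (SE 0.33) and −0.19, and Eif5a2, the less abundant paralogue, by −0.31 (SE 0.45) and −0.18, and by −0.54 without ASP shGRIN2D replicate 2 and −0.08 without ASP shGRIN2D replicate 1. Creb1 differed by −0.21 (SE 0.30) and −0.18. In all of these, the pellets of the groups overlapped. Among 17 hypusine and polyamine enzymes counted, 7 lay above 0 and the median difference was −0.02, with or without ASP shSCR replicate 1 (−0.15 to 0.05 when single pellets were omitted). The lowest was Sat2, with a mean of 3.81 counts per library and a difference of −2.19 (SE 2.02), too few counts for the value to be read. Among the members with at least 50 counts, the lowest was Azin2, which inhibits antizyme, at −0.97 (SE 0.41) and −0.29 without that replicate.

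The TGF-β pathway, which the study places downstream of eIF5A, had list medians between −0.11 and −0.01 with all pellets and between −0.02 and 0.07 without ASP shSCR replicate 1. TGF-β ligands bind serine/threonine kinase receptors that phosphorylate SMAD proteins, which then enter the nucleus and act on target genes such as those of the matrix. Of 22 ligands, latency proteins and receptors counted, 11 lay above 0 (median −0.01, and 0.07 without ASP shSCR replicate 1), while over all genes the share above 0 was 51.3% (52.1% without that replicate). Ltbp3, a latency protein, was the 1 member at an unadjusted p under 0.05 (0.64, SE 0.30, and 0.45, with 0.41 to 0.78 when single pellets were omitted). None was without the replicate, where 1.41% and 1.09% of all genes lay higher at that p with and without it. Bmpr1a, a BMP receptor, was at −0.40 (SE 0.28) with and without it, and at −0.22 without ASP shGRIN2D replicate 4. Of 17 SMADs and their repressors, 8 lay above 0 (median −0.06 and −0.02), and of 17 target genes 7 (median −0.11 and 0.07). The signs of these medians turned on single pellets of both groups. The ligand median ran from −0.12 (without ASP shGRIN2D replicate 1) to 0.11 (without replicate 2), the SMAD median from −0.22 (without replicate 1) to 0.04 (without replicate 4), and the target median from −0.22 (without replicate 1) to 0.07 (without replicate 2). The deposited Hallmark set TGF_BETA_SIGNALING, of which 51 genes were counted, had a median of −0.12 and −0.04.

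The sign of the Tgfb1 difference rested on 1 pellet. Its ratios were −1.27, −1.41, −1.80 and −1.64 in ASP shGRIN2D and 0.21, −1.72, −1.65 and −1.64 in ASP shSCR. The control pellets other than replicate 1 lay within the range of the silenced pellets. The difference was accordingly −0.31 (SE 0.33) with all pellets and 0.18 without replicate 1. Smad3 had −0.04, −0.43, −0.71 and −0.71 against −0.70, −0.45, −0.34 and −0.48, a difference of 0.02 (SE 0.25) and −0.01. Skil, a SMAD repressor, had 0.56, 0.15, 0.05 and 0.04 against 0.65, 0.57, 0.38 and 0.71, a difference of −0.38 (SE 0.24) and −0.32 without replicate 1.

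Collagen genes are the matrix genes the study follows, and the enzymes that process collagen had positive differences in nearly all members. Of 22 collagen folding and crosslinking enzymes counted, 22 had a difference above 0 with all pellets and 20 without ASP shSCR replicate 1, with medians of 0.36 and 0.33, whereas the median of all genes was 0.01 and 0.02. When single pellets were omitted, the enzyme median ran from 0.30 to 0.48. The median GC content of these transcripts was 56.22%. Genes with at least 50 counts in the highest GC quintile (from 56.18%) also lay higher, with medians of 0.19 and 0.22 without ASP shSCR replicate 1. Of that quintile, 69.6% lay above 0, and 83.2% without the replicate. Whether the enzymes differ from other genes of like GC content was not tested. The median ratio of the enzymes with at least 50 counts was 1.02, 0.29, 0.47 and 0.88 in the silenced pellets and 0.22, −0.00, 0.65 and 0.38 in the control pellets. ASP shGRIN2D replicates 1 and 4 lay above every control pellet, and replicates 2 and 3 lay among them. At an unadjusted edgeR p under 0.05 there were 2 enzymes, both higher, and 1 without the replicate (P3h3), where 1.41% and 1.09% of all genes were. P3h3, a member of the collagen prolyl 3-hydroxylase family, had 0.84, 0.66, 1.07 and 0.90 against 0.01, −0.01, 0.62 and 0.21, with a difference of 0.67 (SE 0.25) and 0.64 without the replicate, and its pellets did not overlap. Adamts14, a procollagen N-propeptidase, differed by 0.75 (SE 0.34) and 0.60. The most abundant enzymes lay closer to 0: the ER cyclophilin Ppib at 0.23 (SE 0.31) and P4hb, a subunit of prolyl 4-hydroxylase, at 0.12 (SE 0.29), with Ppib at 0.07 and P4hb at 0.11 without the replicate.

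By level, the median of these enzymes differed by 0.28 in the polysomal and −0.23 in the sub-polysomal libraries. Pcolce, which enhances the removal of the procollagen C-propeptide, fell in the sub-polysomal libraries (−0.82, edgeR adjusted p = 0.0270), but not past the threshold without ASP shSCR replicate 1 (adjusted p = 0.114), and its polysomal level differed by −0.02.

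Of 26 collagen chains counted, 11 had a mean of at least 50 counts. Over all 26, 19 lay above 0, with a median of 0.22 and 0.30 without ASP shSCR replicate 1, and 1 chain lay higher and 1 lower at an unadjusted p under 0.05, where 1.41% and 1.81% of all genes did. The median was −0.02 without ASP shGRIN2D replicate 4 and −0.08 without ASP shSCR replicate 2. Col6a1 had ratios of 1.21, 0.02, 0.62 and 1.83 in the silenced pellets and 0.06, −0.21, 0.90 and 1.07 in the control pellets, a difference of 0.47 (SE 0.37) and 0.37. Without ASP shGRIN2D replicate 4 it was 0.16, and without ASP shGRIN2D replicate 2 it was 0.77. Col18a1 and Col16a1 differed by 0.46 (SE 0.39) and 0.53 (SE 0.43), and by 0.33 and 0.43 without ASP shSCR replicate 1. The same pellets moved them, to 0.17 and 0.18 without ASP shGRIN2D replicate 4 and to 0.81 and 0.87 without ASP shGRIN2D replicate 2. Col1a1, a chain of collagen I, had a mean of 8.25 counts per library, and its difference of 0.61 had an SE of 1.46 and was −0.43 without the replicate, so a change was not detectable at this depth. Integrins, the receptors that bind matrix proteins, included 15 of 19 subunits above 0 (median 0.29 and 0.20), with a median of 0.15 without ASP shGRIN2D replicate 1. Itga2, a collagen receptor subunit, lay on the other side, with 0.05, 0.05, 0.19 and 0.26 against 0.50, 0.54, 0.30 and 0.95 (difference −0.43, SE 0.25, and −0.42).

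mRNAs of the translation machinery were next. Ribosomal protein mRNAs and several translation factor mRNAs carry a terminal oligopyrimidine (TOP) tract, a run of C and U at the very 5′ end through which mTOR signalling and LARP1 control their entry into polysomes. To show what this feature looks like among the genes compared, the 30 bases around the annotated RefSeq start (15 on either side, GRCm38.p6) were searched for a C followed by at least 5 further C or T. The windows of abundant members with and without such a tract are given here 5′ to 3′ on the gene's strand, with the longest tract in capitals.
Eef1a1 (chr9:78481710-78481739, minus strand): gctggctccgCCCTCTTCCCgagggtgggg
Rpl7a (chr2:26910792-26910821, plus strand): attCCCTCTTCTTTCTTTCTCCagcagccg
Rpl27a (chr7:109519180-109519209, plus strand): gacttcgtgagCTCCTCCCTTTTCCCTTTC
Rack1 (chr11:48800345-48800374, plus strand): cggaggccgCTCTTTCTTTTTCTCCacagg
Rpsa (chr9:120127751-120127780, plus strand): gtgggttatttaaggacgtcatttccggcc
Rpl41 (chr10:128549154-128549183, minus strand): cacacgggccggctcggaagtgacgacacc

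A tract was found in 34 of the 58 ribosomal protein genes matched by symbol to RefSeq (58.6%), in 7 of 15 other known TOP genes (46.7%), and in 3157 of all 11444 genes counted and matched (27.6%). Rpsa and Rpl41 are known TOP mRNAs, so the absence of the letters says only that the annotated start does not place them in this window.

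The ratios of ribosomal protein mRNAs lay slightly higher in ASP shGRIN2D. Of 79 cytosolic ribosomal proteins, 65 had a difference above 0 with all pellets and 74 without ASP shSCR replicate 1, with medians of 0.18 and 0.25. None passed an unadjusted p of 0.05 with all pellets in edgeR and 1 did without the replicate, where 3.22% and 1.99% of all genes did, and the differences of single members ran from −0.85 to 0.54. The median ratio was −1.31, −0.76, −0.96 and −1.0 in the silenced pellets and −0.92, −1.46, −1.27 and −0.95 in the control pellets, and the groups overlapped. ASP shGRIN2D replicate 1 lay among the control pellets, below 3 of the 4. Leaving out ASP shSCR replicate 2, the lowest control pellet, brought the median to 0.07. The median level of these mRNAs differed by −0.12 in the polysomal and −0.28 in the sub-polysomal libraries. Without ASP shSCR replicate 1, these level differences were 0.04 and −0.30. Of 21 other known TOP mRNAs, 18 and 19 lay above 0 (median 0.18 and 0.25), and the median was −0.07 without ASP shSCR replicate 2.

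The presence of a tract in the window did not order the values. The 34 ribosomal protein genes with a tract had a median of 0.17 and 0.29 (without ASP shSCR replicate 1), and the 24 without had 0.19 and 0.24. Rpl7a, whose window is printed above, had ratios of 0.15, 0.34, −0.09 and 0.20 against −0.37, −0.89, 0.09 and 0.34 (difference 0.36, SE 0.30, and 0.34, but 0.15 without ASP shSCR replicate 2 and 0.54 without ASP shSCR replicate 4). Rpl27a had −1.03, −0.75, −0.88 and −0.83 against −0.92, −1.56, −1.16 and −0.86 (difference 0.25, SE 0.27, and 0.36, but 0.12 without ASP shSCR replicate 2), and Rack1, a ribosome-bound scaffold, differed by 0.09 (SE 0.27) and 0.25. Rpl21 had −0.29, −0.16, −0.30 and −0.25 against −0.86, −1.17, −0.61 and −0.51, a difference of 0.54 (SE 0.27) and 0.55, with pellets that did not overlap. Rpsa, which lacks the letters, had −1.97, −2.27, −2.57 and −1.74 against 0.48, −2.84, −2.33 and −1.77, so its difference of −0.46 became 0.21 without ASP shSCR replicate 1. Ribosomal protein genes have many processed copies in the genome, among which reads may be split, and this adds uncertainty to single members.

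Among translation factors, those of initiation lay mostly above 0 and those of elongation on both sides. Of 38 initiation factors, 29 lay above 0 (median 0.15, and 28 with 0.19 without ASP shSCR replicate 1), and the median was 0.07 without ASP shGRIN2D replicate 1 and 0.08 without ASP shSCR replicate 2. Eif3g, a subunit of the initiation factor eIF3, differed by 0.45 (SE 0.24) and 0.42. Of 11 elongation and release factors, 6 and 7 lay above 0 (median 0.00 and 0.11, and −0.07 without ASP shGRIN2D replicate 1). Of the 20 aminoacyl-tRNA synthetases matched, out of 37 listed, 16 lay above 0 with and without the replicate (median 0.23 and 0.13), and the median was 0.08 without ASP shGRIN2D replicate 1. Dars, the cytosolic aspartyl-tRNA synthetase, had 2.59, 1.78, 2.37 and 2.12 against 1.44, 1.57, 1.91 and 1.57, a difference of 0.59 (SE 0.25) and 0.57.

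Proteasome subunits, ER chaperones, nuclear-encoded respiratory chain subunits and mitochondrial ribosomal proteins lay higher with all pellets. Their medians fell without ASP shSCR replicate 1 and rose without ASP shSCR replicate 2. Of 37 proteasome subunits, 34 lay above 0 with a median of 0.34, and 28 with 0.14 without replicate 1, while the median was 0.48 without replicate 2. The median ratio of the subunits was 1.52, 1.57, 1.65 and 1.57 in the silenced pellets and 0.75, 1.49, 1.56 and 1.51 in the control pellets. Only ASP shSCR replicate 1 lay far from the rest. Psmd3, a regulatory particle subunit, differed by 0.64 and 0.44, and Psmc5, a base ATPase, by 0.47 and 0.33. Of 20 ER chaperones, 17 and 15 lay above 0 (median 0.17 and 0.12, and 0.33 without replicate 2), with the disulfide isomerase Pdia3 at 0.61 (SE 0.27) and 0.41. Of 79 nuclear-encoded respiratory chain subunits, 66 lay above 0 with all pellets (median 0.17), and 31 without replicate 1 (median −0.04), while the median was 0.43 without replicate 2. Of 78 mitochondrial ribosomal proteins, 63 and 42 lay above 0 (median 0.15 and 0.01, and 0.40 without replicate 2). Mrps31 was at 0.81 (SE 0.33) and 0.82 without replicate 1.

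**Figure D3:**
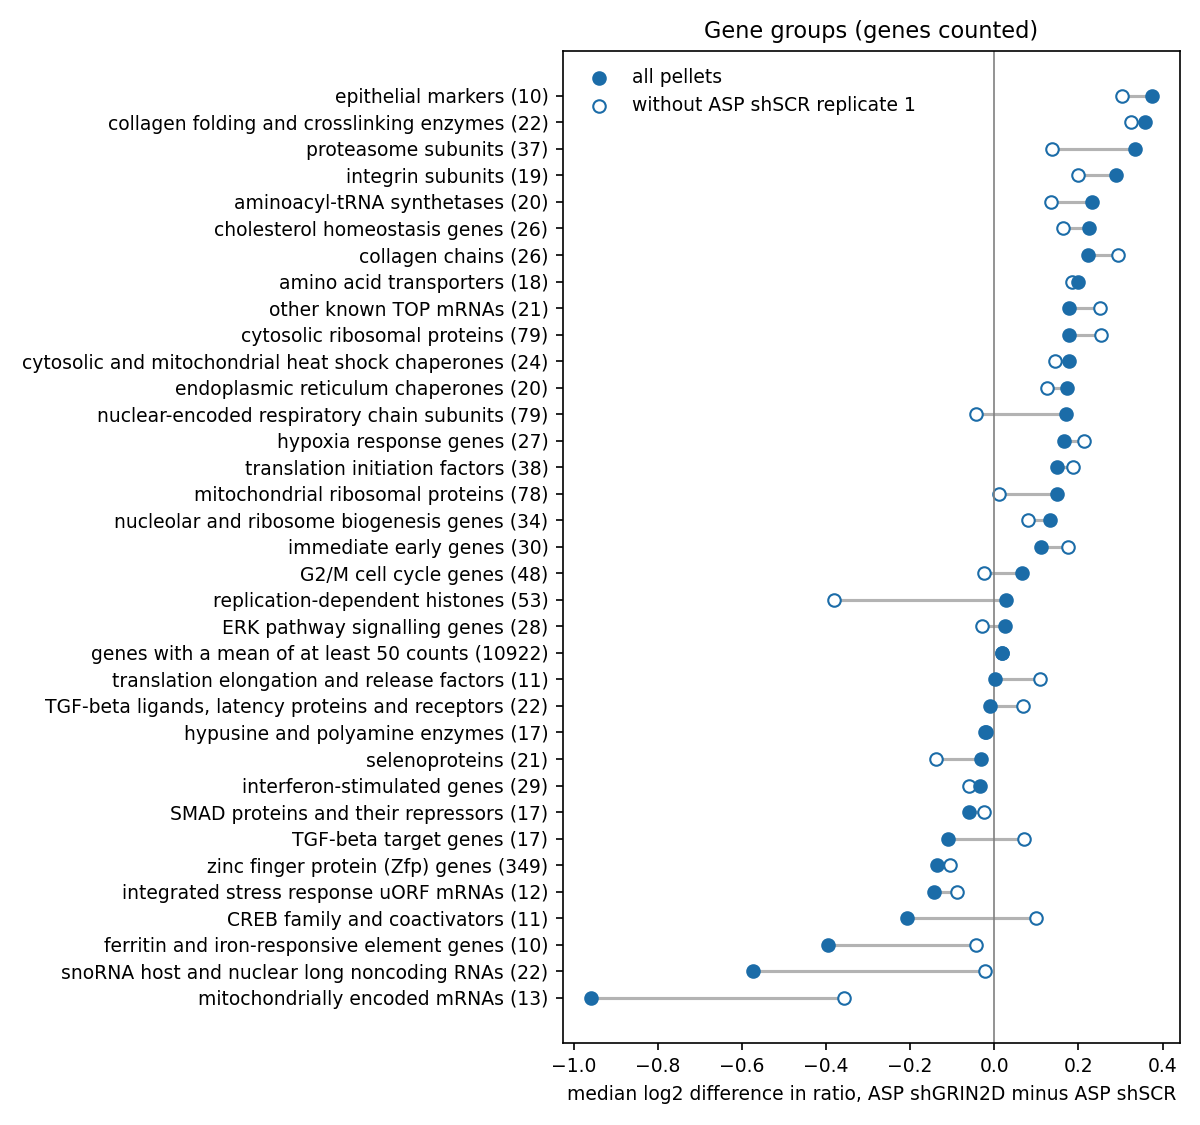
Median log2 difference in the ratio, ASP shGRIN2D minus ASP shSCR (x axis), for each gene group with its number of genes counted (y axis), with filled points for all pellets and open points without ASP shSCR replicate 1. Mitochondrially encoded mRNAs go from −0.96 to −0.36 and snoRNA host and nuclear long noncoding RNAs from −0.57 to −0.02. Collagen folding enzymes stay at 0.36 and 0.33.

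The groups that lay lowest in ASP shGRIN2D included mitochondrially encoded mRNAs and a list of noncoding RNAs, and their values moved with ASP shSCR replicate 1. All 13 mitochondrially encoded mRNAs, which are translated inside the organelle, had a difference below 0, with a median of −0.96, and 6 had an unadjusted edgeR p under 0.05, as did 1.81% of all genes in that direction. Without ASP shSCR replicate 1, 11 lay below 0, the median was −0.36 and none had such a p (0.901% of all genes). Their median ratio was −4.25, −3.22, −3.57 and −3.84 in the silenced pellets and −0.45, −3.40, −3.52 and −2.92 in the control pellets, so control replicates 2 and 3 lay within the range of the silenced pellets, replicate 4 just above it and replicate 1 far above it. mt-Atp6, a subunit of ATP synthase, had −4.63, −3.38, −4.12 and −4.08 against 0.30, −3.63, −3.16 and −3.09 (difference −1.51, and −0.72 without the replicate).

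The same was seen in other RNAs. The 22 snoRNA host and nuclear long noncoding RNAs had a median of −0.57 with 3 above 0, and of −0.02 with 10 above 0 without the replicate. Their median ratio was −2.59, −2.15, −2.44 and −1.78 in the silenced pellets and −0.58, −2.13, −2.32 and −1.63 in the control pellets. Norad, a long noncoding RNA that binds Pumilio proteins, differed by −0.86 (SE 0.36) and −0.46, and Neat1, the scaffold of paraspeckles, by −0.70 (SE 0.29) and −0.52. The ferritin mRNAs, which carry iron-responsive elements that block initiation, had the same pellet apart. Fth1 had ratios of −2.03, −2.59, −3.63 and −2.35 against 3.25, −3.68, −2.68 and −2.11, and its difference was −0.80 (SE 0.82) with and 0.22 without that replicate. Ferritin genes also have processed copies.

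mRNAs with upstream open reading frames, which gain ribosomes when eIF2α is phosphorylated in the integrated stress response, lay slightly lower. Of 12 counted, 3 lay above 0 with and without ASP shSCR replicate 1 (median −0.14 and −0.09). The median was −0.08 without ASP shSCR replicate 2 and −0.22 without ASP shSCR replicate 4. Their median ratio was −1.14, −0.68, −0.54 and −0.85 in the silenced pellets and −0.59, −0.35, −0.67 and −1.04 in the control pellets, and the groups overlapped. At an unadjusted edgeR p under 0.05 there was none with all pellets and 1 without the replicate, Ibtk, which was lower (−0.35, SE 0.26, and −0.52), where 1.81% and 0.901% of all genes were. Atf4, the central transcription factor of this response, had −2.22, −1.16, −1.12 and −1.47 against −0.75, −1.13, −1.58 and −1.21, a difference of −0.32 (SE 0.27) and −0.14 without the replicate. Ddit3 differed by −0.43 (SE 0.28) and −0.11.

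Zinc finger genes were the list with the most members, and they lay lower with and without the replicate. The Zfp genes mostly encode C2H2 zinc finger proteins, many of which repress transposable elements. Of 349 counted, 128 lay above 0 (median −0.14), and 135 without ASP shSCR replicate 1 (median −0.11). At an unadjusted p under 0.05 in edgeR, 13 were lower and 3 higher, and 10 and 3 without the replicate, where 1.81% and 1.41% of all genes were lower and higher, and 0.901% and 1.09% without it. The median ratio of the 256 with at least 50 counts was 0.03, −0.13, 0.10 and −0.05 in the silenced pellets and 0.14, 0.23, 0.09 and 0.16 in the control pellets. The lowest control pellet lay within the range of the silenced pellets, and the other 3 lay above it. Zfp799 had −0.34, −0.35, −0.27 and −0.47 against 1.05, 0.15, −0.26 and 0.89 (difference −0.82, SE 0.32, and −0.59 without the replicate). Zfp938 differed by −0.92 (SE 0.37) and −0.96, and Zfp91, a more abundant member, by −0.51 (SE 0.24) and −0.40.

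**Figure D4:**
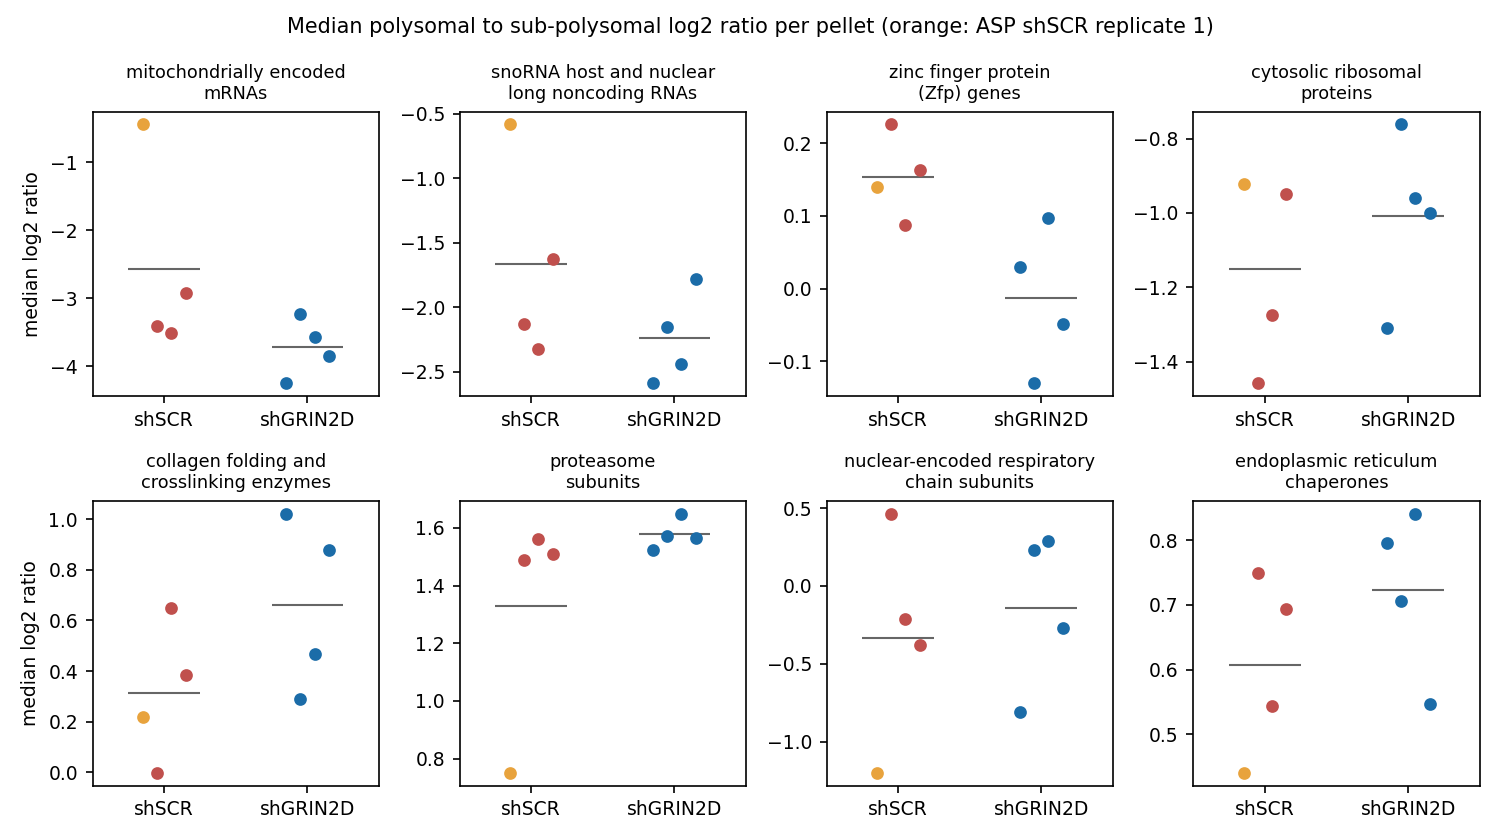
Median log2 ratio per pellet (y axis, a separate scale in each panel) for 8 gene groups in ASP shSCR and ASP shGRIN2D, over members with at least 50 counts, with the mean as a line and ASP shSCR replicate 1 in orange. In the mitochondrially encoded, noncoding and proteasome panels the orange point is far from the other points, and in the zinc finger panel it lies at 0.14 among the control pellets.

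Zinc finger and ribosomal protein mRNAs differ in composition, so the ratio was also described by transcript features. The features were chosen after the data had been seen. They came from the GENCODE M21 transcript with the longest coding sequence, with in-frame sequences that start with ATG preferred. A coding transcript was found for 10402 of the 10922 genes with at least 50 counts (95.2%). From the lowest to the highest quintile of GC content, the median difference was −0.08, −0.08, 0.00, 0.11 and 0.19, and −0.10, −0.11, −0.04, 0.11 and 0.22 without ASP shSCR replicate 1. The gap between the highest and the lowest quintile ran from 0.09 without ASP shSCR replicate 2 to 0.41 without ASP shGRIN2D replicate 3, and was 0.13 without ASP shGRIN2D replicate 1. The share of genes above 0 was 38.2% in the lowest and 69.6% in the highest quintile. From the shortest to the longest 3′ untranslated region, the median difference was 0.15, 0.10, 0.02, −0.05 and −0.10, and 0.09, 0.10, 0.05, −0.02 and −0.11 without the replicate. By whole transcript length it was 0.10, 0.08, 0.04, −0.003 and −0.09, and 0.04, 0.12, 0.06, −0.01 and −0.12 without the replicate. Zfp genes had a median GC content of 44.1%, against 50.5% for all these genes, and ribosomal protein genes a median 3′ untranslated region of 92 bases against 989.5. The 1963 genes of the lowest GC quintile that are not Zfp genes had a median difference of −0.07 (−0.09 without the replicate).

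Whether the trends with GC content and with the 3′ untranslated region exceeded the spread between pellets was tested on 1 value per pellet. The trend with transcript length was not tested in this way. The median ratio of the highest minus that of the lowest GC quintile was −0.24, −0.68, −0.98 and −0.33 in the silenced pellets and −0.47, −1.26, −0.55 and −0.89 in the control pellets. The groups overlapped, and the mean difference was 0.24 (two-sided exact permutation test, p = 0.343, and 0.34 with p = 0.257 without ASP shSCR replicate 1). For the 3′ untranslated region, the values were −0.13, −0.25, −0.25 and −0.34 against −0.08, −0.06, −0.16 and 0.01. Only ASP shGRIN2D replicate 1 and ASP shSCR replicate 3 crossed, and the mean difference was −0.17 (exact permutation p = 0.0571, and −0.17 with p = 0.0857 without the replicate). Neither trend passed 0.05. For proline, the amino acid for which eIF5A is best known, genes were grouped by their number of triplets of consecutive proline codons. Overlapping triplets were counted separately, so a longer run adds more than 1. Genes with 0, 1, 2 to 3 and at least 4 triplets had median differences of 0.02, 0.02, 0.04 and 0.01 (7782, 1347, 715 and 558 genes). Without the replicate these were 0.01, 0.04, 0.07 and 0.04, lowest in the genes with no triplet. Over the same groups the median GC content rose (49.92%, 52.1%, 52.58% and 53.65%), as did the median coding length (1236, 1848, 2145 and 2760 bases). The part of these 2 features in the proline values was not tested.

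**Figure D5:**
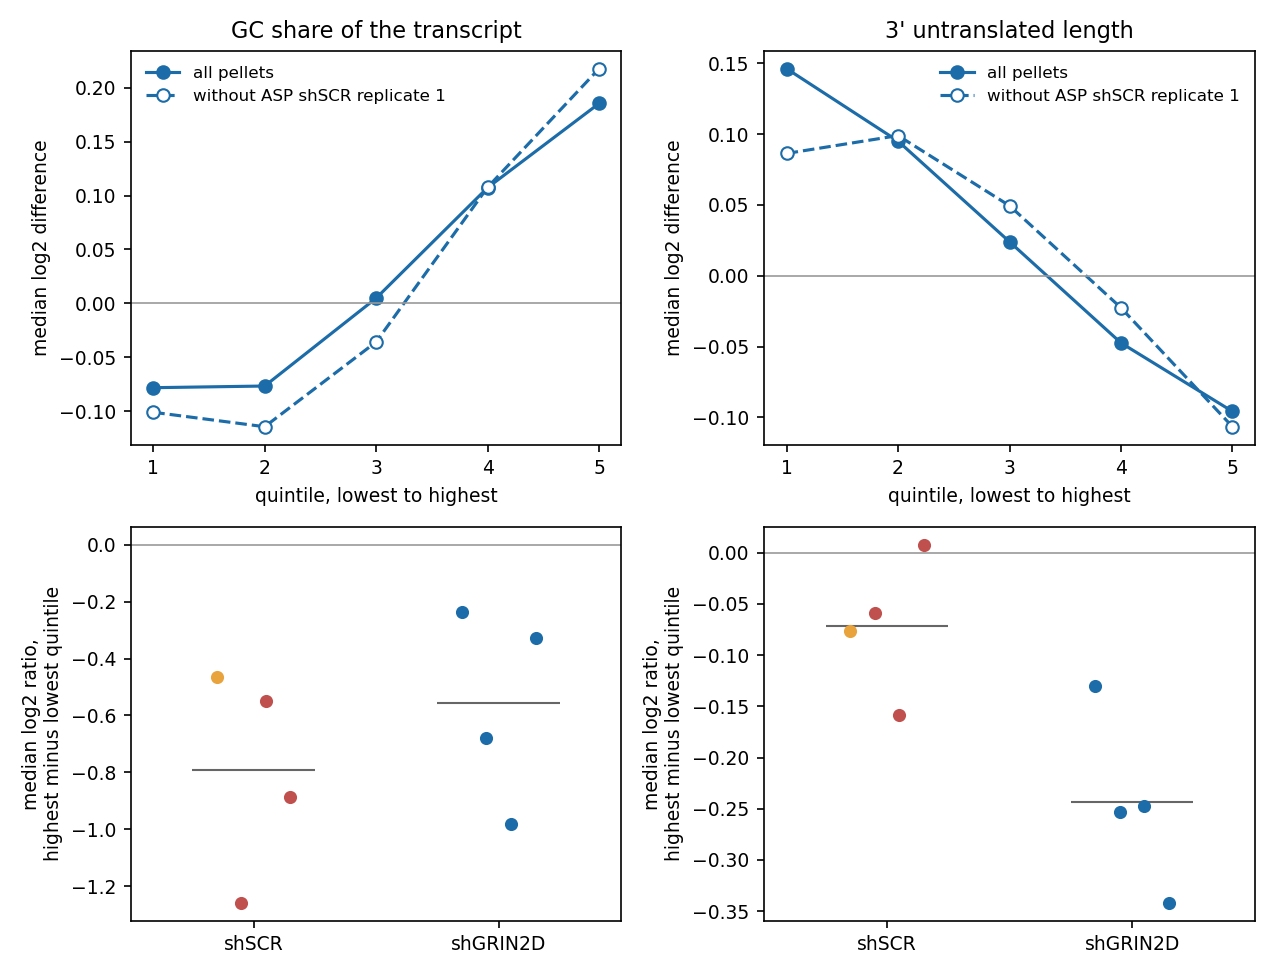
Top, median log2 difference in the ratio (y axis) by quintile of GC share and of 3′ untranslated length (x axis), with all pellets (filled) and without ASP shSCR replicate 1 (open). Bottom, median log2 ratio of the highest minus the lowest quintile in each pellet, with the mean as a line; the groups overlap for GC, and for the 3′ untranslated length they cross only between −0.13 and −0.16.

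Although no ratio passed the threshold, levels within the fractions did. In the sub-polysomal libraries, 19 genes (0.107%) rose and 37 (0.208%) fell in ASP shGRIN2D at an edgeR adjusted p under 0.05, and in the polysomal libraries 3 (0.0169%) rose and 0 fell. Of these, 36 of 56 and 3 of 3 remained without ASP shSCR replicate 1. Without ASP shSCR replicate 3, 14 rose and 84 fell in the polysomal libraries, and without ASP shGRIN2D replicate 4, 11 rose and 12 fell in the sub-polysomal libraries. Among the 56, 53 had the same direction in the polysomal libraries, which came from the same pellets, where 57.4% of all genes had the same direction in both fractions. The genes of this and the next paragraph were chosen after their values were seen.

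The 3 genes that rose in both fractions were Ly6d, Rgs2 and Odf3l1. Ly6d, a surface protein of epithelial progenitors, had 7.23, 13.8, 7.63 and 5.33 CPM in the silenced and 0.395, 1.90, 0.530 and 0.679 CPM in the control polysomal libraries (log2 3.19, SE 0.46, edgeR adjusted p = 0.0221). Rgs2, which limits Gq signalling, had 30.3, 35.6, 36.4 and 27.9 against 11.6, 8.91, 16.2 and 10.9 CPM (1.38, SE 0.21). Odf3l1 rose by 1.36 (SE 0.22), and its ratio differed by 0.12 (SE 0.25). The polysomal calls of these 3 were lost when certain single pellets were left out, for all 3 without ASP shGRIN2D replicate 1 or 3 or ASP shSCR replicate 4. The sub-polysomal call of Rgs2 was lost without ASP shGRIN2D replicate 1 or ASP shSCR replicate 2 (edgeR adjusted p = 0.0880 and 0.0736). Among genes that fell in the sub-polysomal libraries, Krt7, an epithelial keratin, had 291, 341, 371 and 333 against 722, 961, 650 and 596 CPM (−1.14, SE 0.17, edgeR adjusted p = 0.000904), and Mmp9, a matrix metalloproteinase, had 9.20, 10.5, 12.6 and 14.6 against 26.9, 40.0, 18.2 and 25.1 CPM (−1.25, SE 0.23). Their polysomal levels differed by −0.56 and −0.74. Pi4k2b, a phosphatidylinositol kinase, fell by 0.99 and Ccng1, the p53 target cyclin G1, fell by 0.95, with polysomal differences of −1.33 and −1.23.

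Last, the ratios of ASP shGRIN2D were compared with those of ASP shDHPS, which shares no control library with it in this contrast. At an edgeR adjusted p under 0.05, 1 gene (0.00563%) differed, and at an unadjusted p under 0.05, 923 (5.2%) lay higher in ASP shGRIN2D and 215 (1.21%) lower. The 1 gene was Zfp946 (ENSMUSG00000071266), a zinc finger gene with a difference of 1.89 (SE 0.31, edgeR adjusted p = 0.0274). With single pellets of these conditions left out, 1 gene was called without ASP shDHPS replicate 4 and 0 without any of the other 7. Against ASP shSCR, Zfp946 had 0.65, 0.54, 0.71 and 0.75 in the silenced pellets and 0.23, 0.64, −0.07 and −0.32 in the control pellets, a difference of 0.56 (SE 0.30) and 0.64 without ASP shSCR replicate 1, and was thus among the Zfp genes above 0. Against ASP shDHPS, the 349 Zfp genes counted had a median difference of 0.26, where that of all genes was −0.01.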

How the data were processed

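The authors prepared stranded mRNA libraries, and per the labels and Methods they trimmed the reads with Trim Galore 0.6.6, aligned them to GRCm39 with STAR 2.6.1 and quantified them with Salmon 1.4.0. The deposited counts are their estimates rounded to whole numbers, without normalization, after removal of genes lacking counts in most replicates of the groups. The deposited gene set file served for the Hallmark sets. Tables with the authors' fold changes, p-values, scores and gene set results were not used.

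In R 4.3.3, edgeR 4.0.16 (TMM, quasi-likelihood F-test, two-sided) was fitted to all 32 libraries with 1 coefficient per pellet (16) and 1 ratio per condition (4), and levels to the 16 libraries of a fraction. p-values were adjusted by Benjamini-Hochberg over 17757 genes (threshold 0.05). Pellet ratios are log2 of TMM-scaled CPM with a prior count of 2. Named genes were those of the study's mechanism, the 10 per direction described in the text, and per list the 2 most abundant and the 2 with the smallest p. Not all genes that this rule names are reported here. Members and lists were chosen with earlier results of these data known. Alternatives used DESeq2 1.42.0, limma 3.58.1, other filters, scalings and designs, and each pellet left out in turn. Start windows came from RefSeq GRCm38.p6 and features from GENCODE M21 (GRCm38), since no GRCm39 reference was used here. The steps were tested on simulated data. Replicate libraries differed by more than counting noise.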

Additional observations from a re-analysis of the deposited data

Results flagged for a closer look

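Of 138 groups of 4 pellets checked, in 6 a pellet lay far from the other 3, and in 5 of these it was ASP shSCR replicate 1. Chance gives about 1 in 20 such groups. In ASP shSCR replicate 1, the median ratio of proteasome subunits was 0.75 (nearest control pellet 1.49), that of ferritin and iron-responsive element genes 1.12 (nearest −0.06) and that of interferon-stimulated genes 0.52 (nearest 0.66). The ratio of Tgfb1 in the same pellet was 0.21 (nearest −1.64) and that of Vldlr −1.06 (nearest 0.28). In ASP shGRIN2D replicate 3, the ratio of Cep152 was −0.28 (nearest −0.79). The polysomal library of ASP shSCR replicate 1 also lay at 0.372 on the scale from the sub-polysomal to the polysomal profile, and the part of this position in the differences above was not tested beyond leaving the pellet out.

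Zfp946 differed between the knockdowns in edgeR's test of the difference itself, with a ratio higher in ASP shGRIN2D than in ASP shDHPS by 1.89 (adjusted p = 0.0274). No gene was called in this contrast in 7 of the 8 fits that left out a single pellet.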

How the results depend on the processing

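The count of genes with a changed ratio was 0 in every setting run. At an unadjusted p under 0.05, where 250 genes lay higher and 321 lower, 156 lay higher with TMM within each fraction, 128 higher and 192 lower with the 2 conditions fitted alone, 379 higher with limma, 205 lower with at least 10 counts in every library and 779 lower without the pellet term. Leaving out single pellets gave 153 to 499 higher and 160 to 682 lower. Against ASP shDHPS, DESeq2's Wald test called 37 genes and the filter of at least 10 counts 2 (135 lower at an unadjusted p), and leaving out pellets gave 0 to 1 called and 551 to 1099 higher. Pellets did not overlap in 326 genes higher and 342 lower without ASP shSCR replicate 1. Polysomal level calls were 6 higher and 1 lower with DESeq2 size factors, 36 and 37 with DESeq2's Wald test, and 0 to 14 and 0 to 84 with single pellets left out. Sub-polysomal calls were 87 higher and 137 lower with the Wald test, and 11 to 27 and 12 to 44 with single pellets left out.

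TMM within each fraction moved the median of genes with at least 50 counts from 0.02 to −0.048, and Smad3 (−0.045), Rpl41 (−0.0060) and Eef2 (−0.029) changed sign. With single pellets left out, the separation of the fractions ran from 0.0749 to 0.366. List medians ran from −0.16 to 0.10 (CREB), −0.13 to 0.052 (ERK), 0.12 to 0.33 (ER chaperones), −0.060 to 0.10 (interferon) and −0.38 to 0.59 (histones). Genes whose sign changed were Dhps (−0.10 to 0.40), Eif5a (−0.31 to 0.12), Creb1 (−0.41 to 0.024), Tgfb1 (−0.47 to 0.18), Smad3 (−0.16 to 0.10), Col1a1 (−0.43 to 1.45), Rpsa (−0.87 to 0.21), Rpl41 (−0.20 to 0.30), Eef1a1 (−0.40 to 0.20), Eef2 (−0.29 to 0.31), Rack1 (−0.067 to 0.25), P4hb (−0.069 to 0.26), Zfp706 (−0.72 to 0.0069), Gas5 (−0.60 to 0.060), Fth1 (−1.62 to 0.22), Ftl1 (−1.62 to 0.15) and Jund (−1.04 to 0.19). Apart from effects of construction, the cause was not tested.

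Pellets of the 2 conditions correlated at −0.24 to 0.40 (median 0.07) for the same replicate number and at −0.51 to 0.52 (median −0.09) for different numbers. With only 4 same-number pairs, these ranges cannot show whether the numbers pair the pellets. With the number as a replicate block, 373 genes lay higher and 376 lower at an unadjusted p under 0.05, 0 after adjustment. Level calls with the block were 17 higher and 10 lower (polysomal) and 76 and 119 (sub-polysomal). Without the block they were 3 and 0, and 19 and 37. Whether the numbers mark a shared batch was not tested. Genes with few counts, such as Grin2d and Col1a1, limit what could be detected.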

Other observations

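Among the 50 Hallmark sets of the deposited collection, TGF_BETA_SIGNALING had the lowest median difference in the ratio with all pellets. Of its 51 genes counted, 20 lay above 0 (median −0.12), and 22 without ASP shSCR replicate 1 (median −0.04), where 5 sets lay lower, the lowest being UV_RESPONSE_DN (−0.08). The median ratio of the set was −0.03, −0.20, −0.07 and −0.35 in the silenced pellets and 0.03, −0.05, −0.12 and −0.06 in the control pellets, which overlapped. At the other end with all pellets were BILE_ACID_METABOLISM (58 of 84 above 0, median 0.19 and 0.11), COAGULATION (61 of 90, 0.18 and 0.14) and MYC_TARGETS_V1 (145 of 201, 0.18 and 0.10), and without the replicate MYOGENESIS was highest (0.17, and 0.13 with all pellets).

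Genes of cholesterol homeostasis held members on both sides. Of 26 counted, 21 lay above 0 (median 0.23 and 0.16 without ASP shSCR replicate 1, and 0.12 without ASP shGRIN2D replicate 1). Fdft1, squalene synthase, differed by 0.56 (SE 0.25) with and without the replicate. Insig1, which retains the sterol sensor in the ER, had ratios of −2.33, −1.73, −1.74 and −1.63 against −0.24, −1.22, −1.48 and −1.45, a difference of −0.76 (SE 0.30) and −0.44 without the replicate. Of 27 hypoxia response genes, 17 lay above 0 (median 0.17 and 0.21, but 0.03 without ASP shSCR replicate 2 and 0.05 without ASP shGRIN2D replicate 1), while Pdk1, which restrains pyruvate oxidation, had −2.19, −1.80, −1.59 and −2.0 against −0.72, −0.66, −1.78 and −1.20 (difference −0.82, SE 0.28, and −0.67 without the replicate). The median of 28 ERK pathway genes was 0.03 and −0.03. Jund followed ASP shSCR replicate 1, with 0.95 in that pellet and −3.11 to −2.44 in the other 7.

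Epithelial markers, heat shock chaperones and amino acid transporters also lay above the middle of all genes. Of 10 epithelial markers, 9 lay above 0 (median 0.37, and 10 with 0.30 without ASP shSCR replicate 1, and 0.16 without ASP shSCR replicate 2 and 0.18 without ASP shGRIN2D replicate 4), and their median level differed by −0.17 in the polysomal and −0.53 in the sub-polysomal libraries. Of 24 heat shock chaperones, 19 lay above 0 (median 0.18 and 0.14, and 0.08 without ASP shSCR replicate 2), with the co-chaperone Dnaja1 at 0.67 (SE 0.27) and 0.48, and Hspb1, a small heat shock protein, at −0.87 (SE 0.47) and −1.25. Of 18 amino acid transporters, 15 lay above 0 (median 0.20 and 0.18, and 0.06 without ASP shGRIN2D replicate 1). Of 34 nucleolar and ribosome biogenesis genes, 25 lay above 0 (median 0.13 and 0.08, and 0.05 without ASP shGRIN2D replicate 1). Of 30 immediate early genes, 18 lay above 0 (median 0.11 and 0.17), and the sign turned without ASP shGRIN2D replicate 1 (−0.11), ASP shGRIN2D replicate 4 (−0.02) or ASP shSCR replicate 2 (−0.10). The 11 CREB family members and coactivators had a median of −0.21, and 0.10 without the replicate.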
